A study of Mus musculus with 9 samples.

Results

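Unstimulated MA-10 cells, a clonal mouse line grown from a Leydig cell tumour, are described here from 3 of the 9 arrays of a study on cAMP and AMPK signalling. The members are the 3 control arrays, chosen by their titles. Every gene measured by a probe with exactly 1 gene symbol was ranked by its mean log2 level over them, which gave 19938 genes, each with 1 probe (that with the highest mean over all 9 arrays). A probe here is 1 transcript cluster of an Affymetrix whole-transcript array. The control cells had 1.5 h in serum-free DMEM-F12 medium after growth in horse serum. Their titles speak of no treatment and their treatment field names DMSO, the solvent of the other groups. The other 6 arrays, of cells given 10 µM forskolin with or without 1 mM AICAR for the same time, served only to choose a gene's probe, and no treatment was compared. The labels do not say whether the 3 replicates came from separate cultures. The p-values therefore set a gene's mean distance from a background level, defined below, against the spread among these samples only. That spread may be technical, and the small number of arrays limits the precision of the p-values. The cells are 1 immortal clone and stand for Leydig cells only as far as that clone keeps their traits.

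Leydig cells lie between the seminiferous tubules of the testis and make androgens from cholesterol. Luteinizing hormone raises their cAMP, StAR then carries cholesterol into the mitochondria, and the side-chain cleavage enzyme CYP11A1 turns it into pregnenolone, which enzymes of the endoplasmic reticulum turn into progesterone and androgens. The nuclear receptor SF-1 and GATA factors switch on most of these genes. MA-10 cells are known for making progesterone as their main steroid.

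The deposited values hold no detection call, so each array's own background was used. It was the 95th percentile of 1027 olfactory receptor genes, which are silent in nearly all cells outside the nose: a log2 level of 6.62, 6.63 and 6.54 in replicates 1, 2 and 3. A gene counted as above this olfactory background when limma's moderated two-sided test of its value minus the array's background gave a Benjamini-Hochberg adjusted p under 0.05 and a positive mean; 12292 genes (61.7%) did, 6936 lay below it and 710 on neither side. In 4 families also thought silent in these cells, 19 of 286 genes passed: 0 of 168 vomeronasal receptors, 0 of 34 bitter taste receptors, 7 of 40 beta-defensins and 12 of 44 keratin-associated genes, whose proteins form hair. A second background, added after the data were seen, was therefore the 95th percentile of the keratin-associated genes, 8.46, 8.45 and 8.26 in the 3 arrays. Above it lay 7511 genes (37.7%), and 4781 lay above the olfactory but not the keratin-associated background. Counts below give both, and they are read against these 2 shares of all genes. Probes bind with different strength, so a gene's place describes a signal on the array and not an amount of transcript that can be set against another gene's.

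**Figure D1:**
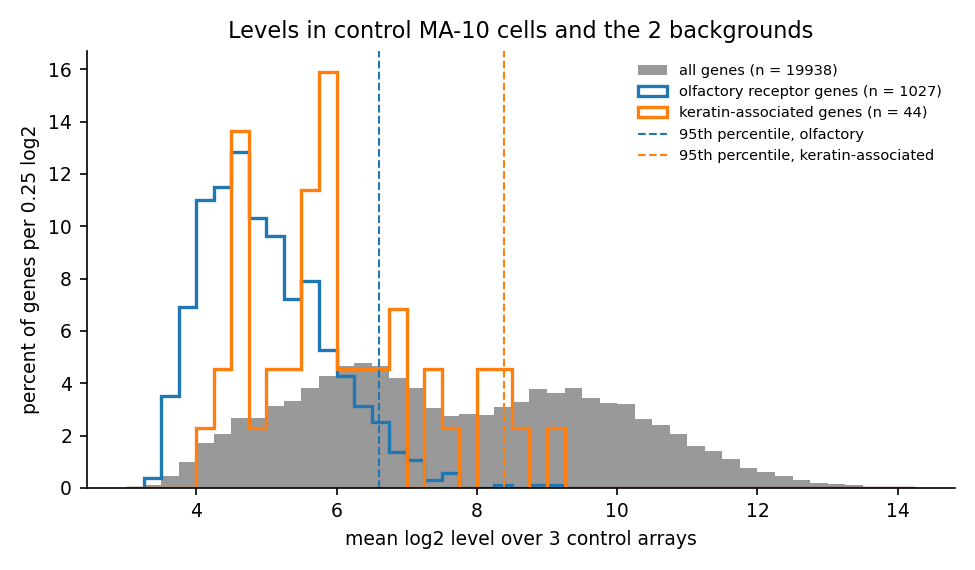
The x axis is the mean log2 level over the 3 control arrays and the y axis the percent of genes per 0.25 log2, for all 19938 genes (grey), 1027 olfactory receptor genes (blue) and 44 keratin-associated genes (orange). The dashed lines mark the 95th percentiles of these 2 families, at means of 6.6 and 8.39; all genes spread over both sides of each line.

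The sequences that precede the transcription start show how different the promoters of strongly detected genes in these cells can be. The 6 below were chosen for that: Nr0b1, Hsd3b6, Amhr2 and Fdx1 belong to the Leydig and steroid lists, and Hmgcs1 and Msmo1 to cholesterol synthesis. Each is the RefSeq window (GRCm38.p6) of 300 bases, 250 before and 50 after the start, read 5′ to 3′ along the gene. Capitals mark the motif matches named for each, which are letter matches and not known binding sites. In Nr0b1 (chrX:86191525-86191824, + strand) they mark a TATA box, TATAAA, that begins 32 bases before the start.
Nr0b1: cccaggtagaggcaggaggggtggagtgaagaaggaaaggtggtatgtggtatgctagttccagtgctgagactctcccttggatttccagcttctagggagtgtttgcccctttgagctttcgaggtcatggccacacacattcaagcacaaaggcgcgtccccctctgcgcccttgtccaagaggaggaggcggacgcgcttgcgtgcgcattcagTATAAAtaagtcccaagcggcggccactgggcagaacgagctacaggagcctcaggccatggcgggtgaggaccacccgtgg
In Hsd3b6 (chr3:98814394-98814693, − strand) they mark a GATA letter match, AGATAA, 31 bases before the start.
Hsd3b6: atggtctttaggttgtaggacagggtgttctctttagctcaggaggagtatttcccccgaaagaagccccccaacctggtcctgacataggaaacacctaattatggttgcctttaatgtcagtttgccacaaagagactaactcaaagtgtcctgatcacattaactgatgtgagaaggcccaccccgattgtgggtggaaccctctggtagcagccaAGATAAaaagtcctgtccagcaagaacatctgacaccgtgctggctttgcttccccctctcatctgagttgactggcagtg
In Amhr2 (chr15:102445117-102445416, + strand) they mark AAGGTCA, the core read by SF-1, 231 bases before the start, TGATAA on the opposite strand at 199 and the GC box GGGCGG at 17.
Amhr2: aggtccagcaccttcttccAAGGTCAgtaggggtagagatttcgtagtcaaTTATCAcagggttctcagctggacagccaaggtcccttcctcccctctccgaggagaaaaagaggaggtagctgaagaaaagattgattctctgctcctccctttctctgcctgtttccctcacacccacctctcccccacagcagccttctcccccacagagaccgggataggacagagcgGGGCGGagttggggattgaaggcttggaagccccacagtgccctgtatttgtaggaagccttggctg
In Fdx1 (chr9:51963553-51963852, − strand) they mark TGATAA 192 bases before the start and GGGCGG on the opposite strand at 31.
Fdx1: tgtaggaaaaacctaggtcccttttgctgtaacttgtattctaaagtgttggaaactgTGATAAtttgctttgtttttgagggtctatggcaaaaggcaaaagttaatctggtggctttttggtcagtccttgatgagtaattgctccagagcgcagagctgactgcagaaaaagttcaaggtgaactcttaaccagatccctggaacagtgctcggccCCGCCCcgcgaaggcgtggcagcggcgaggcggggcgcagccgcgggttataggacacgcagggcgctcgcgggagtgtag
In Hmgcs1 (chr13:119690101-119690400, + strand) they mark CCAAT, the box read by NF-Y, on the opposite strand 237, 176 and 45 bases before the start, and once more at base 11 after it.
Hmgcs1: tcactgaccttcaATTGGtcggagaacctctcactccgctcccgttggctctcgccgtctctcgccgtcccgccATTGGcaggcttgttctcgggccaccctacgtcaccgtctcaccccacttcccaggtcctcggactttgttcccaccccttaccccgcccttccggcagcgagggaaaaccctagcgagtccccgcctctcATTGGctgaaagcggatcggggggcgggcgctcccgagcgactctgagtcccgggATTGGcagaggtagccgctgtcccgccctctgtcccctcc
In Msmo1 (chr8:64733529-64733828, − strand) they mark CCAAT at 160, 96 and 55 bases before the start.
Msmo1: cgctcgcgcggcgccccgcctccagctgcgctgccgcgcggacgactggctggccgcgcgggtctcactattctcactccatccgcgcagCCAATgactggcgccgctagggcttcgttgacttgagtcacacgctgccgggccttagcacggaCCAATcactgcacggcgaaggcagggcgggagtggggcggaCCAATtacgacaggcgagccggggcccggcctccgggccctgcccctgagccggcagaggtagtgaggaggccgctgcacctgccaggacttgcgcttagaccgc

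All 6 genes that mark the Leydig cell in the label's terms were above both backgrounds in the control cells. Star, the cholesterol carrier whose synthesis cAMP triggers, read 8.57, 8.61 and 8.56, a mean of 1.98 (SE 0.041, n = 3) over the olfactory background with an adjusted p of 4.6e-19 in limma. It stood at place 7401 of 19938, the 62.9th percentile, and only 0.19 over the keratin-associated background (adjusted p = 0.0095, limma). So Star was detected in every array, near the level that some hair genes reach.

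Cyp11a1, which makes pregnenolone, read 11.66, 11.68 and 11.75 and stood at place 541, 5.1 (SE 0.045) over the olfactory background. Fdx1, the ferredoxin that hands electrons to CYP11A1, read 9.76, 9.75 and 9.86, 3.19 (SE 0.046) over it. Scarb1, the receptor through which Leydig cells take cholesterol esters from high-density lipoprotein, read 10.94, 10.91 and 10.87, at place 1479. The 3 arrays of each of these genes lay within narrow bounds and far from the background.

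Nr5a1 encodes SF-1 and read 11.92, 11.86 and 11.86, at place 427 and 5.28 (SE 0.042) over the olfactory background. Nr0b1 encodes DAX-1, which represses SF-1, and read 12.62, 12.72 and 12.72, at place 106. It was the first of all transcription factor and receptor genes in the lists used here. Both the activator and its repressor thus stood in the top 3 percent of signals, at the 97.9th and 99.5th percentiles.

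Of 29 measured genes of steroid synthesis and breakdown, 20 were above the olfactory background and 17 above both (all genes: 61.7% and 37.7%). Hsd3b6, a 3-beta-hydroxysteroid dehydrogenase of mouse Leydig cells that makes progesterone, read 11.91, 11.92 and 11.93. Its relative Hsd3b1 read 8.73, 8.68 and 8.73. These genes and Hsd3b2 (mean 4.63) are near-identical in sequence, so their probes may share signal. Cyp17a1, which turns progestins into androgens, read 10.45, 10.57 and 10.71, with an SD of 0.13 that was among the wider ones of the list. Cyb5a, the cytochrome b5 that helps CYP17A1 to cleave, read 11.19, 11.26 and 11.32. Cyb5a and Cyp17a1 both had their lowest value in replicate 1 and their highest in replicate 3.

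Hsd17b3, the enzyme that makes testosterone in the testis, read 4.87, 4.93 and 4.77, with a mean of -1.74 relative to the olfactory background (adjusted p = 3.7e-18, limma). Sult1e1, which inactivates oestrogens, was at a mean of 4.48, Cyp7b1, a steroid hydroxylase, at 4.81, and Hsd11b1, which regenerates glucocorticoids, at 5.41, all below it. The adrenal hydroxylases lay there or at its edge, Cyp21a1 at 5.67, Cyp11b1 at 6.12 and Cyp11b2 at 6.6, the last on neither side. So did Hsd17b1, which makes oestradiol, at 6.43. Star, Cyp11a1, Fdx1, Hsd3b1, Hsd3b6 and Cyp17a1, on the path from cholesterol to progestin and on to CYP17A1, were therefore detected. The testis enzyme of the last step to testosterone was below background. Fdxr and Por, also fixed for this list, were not among the measured genes.

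Other list members above both backgrounds were Cyb5b (12.37), a cytochrome b5 of the outer mitochondrial membrane, Hsd17b10 (11.86), a mitochondrial dehydrogenase, Akr1c14 (11.73), which reduces 3-ketosteroids, and Hsd17b7 (11.45), which also serves cholesterol synthesis. Cyp27a1, a mitochondrial sterol hydroxylase (8.09), Hsd11b2, which inactivates glucocorticoids (7.12), and Akr1c18, which inactivates progesterone (6.88), lay between the 2 backgrounds. The largest SD of the list was 0.18, in Cyp21a1.

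**Figure D2:**
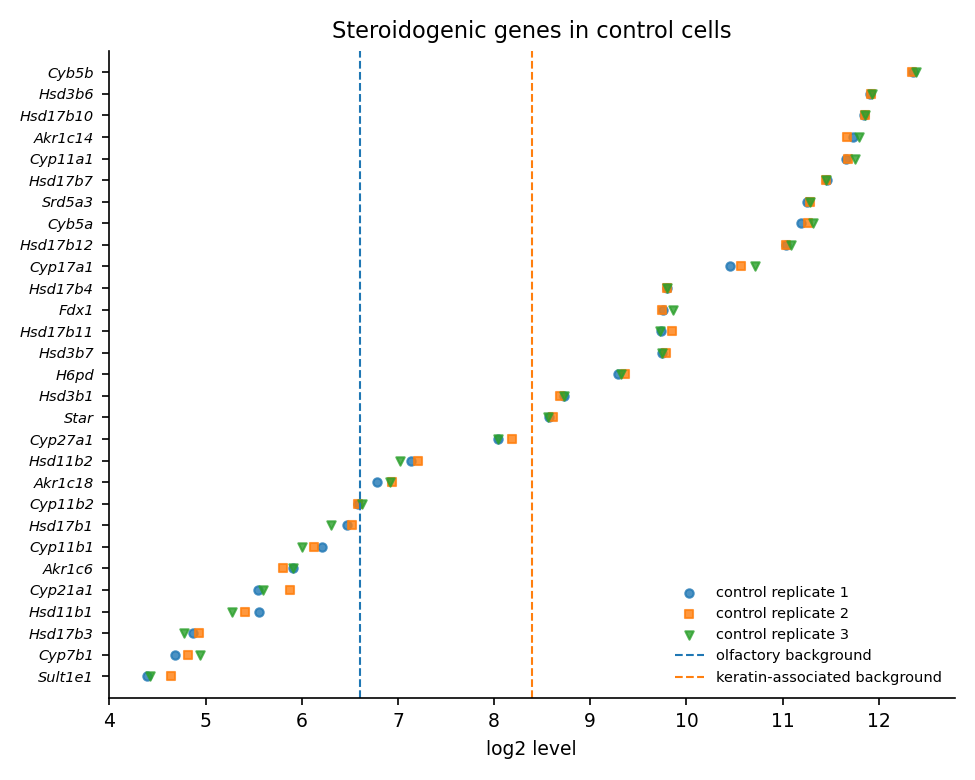
The x axis is the log2 level and each row a measured gene of steroid synthesis or breakdown, with a symbol for each control replicate. The dashed lines are the mean olfactory (6.6) and keratin-associated (8.39) backgrounds; 17 genes, Star at 8.58 being the closest, lie right of both, and Hsd17b3, Cyp7b1 and Sult1e1 lie under 5.

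Genes that bring cholesterol to the mitochondria were detected nearly throughout, with 34 of 36 above the olfactory and 31 above both backgrounds. Of all genes, 61.7% and 37.7% were. Dbi, the acyl-CoA binding protein that also binds TSPO, read 13.16, 13.18 and 13.19, at place 40. Tspo, the outer membrane protein itself, read 11.77, 11.85 and 11.88, and Vdac1, the channel beside it, 12.27, 12.23 and 12.27. Apoe (mean 12.58), a cholesterol-carrying apolipoprotein, and Prelid1 (12.63), a lipid carrier between the mitochondrial membranes, also stood in the top percent of signals. Of the relatives of StAR, the soluble carrier gene Stard4 was at 10.18, the endosomal Stard3 at 9.62 and Stard5 at 8.69, all above both backgrounds. Stard6 (6.42) and Tspo2 (5.64), which are known from germ and red blood cells, were below the olfactory background. Nceh1 (11.74) and Lipe (9.2), which split cholesterol esters, and Plin2 (10.33), which coats lipid droplets, were above both, while Plin1 (7.92), Plin4 (7.84) and the exporter Abcg1 (7.34) lay between.

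Among 22 measured genes that tell adult, fetal and progenitor Leydig cells apart, 15 were above the olfactory background and 11 above both. The list was fixed with 28 genes, and Lhcgr, the luteinizing hormone receptor, and Insl3 were among those not measured. Inha, the alpha subunit of inhibin, read 12.71, 12.74 and 12.77, and Dlk1, a membrane protein of immature Leydig cells, 12.57, 12.62 and 12.54. Amhr2, the receptor for anti-Müllerian hormone, read 10.69, 10.79 and 10.7. Ptch1, the hedgehog receptor and target, was at 10.48, but Gli1, another hedgehog target, at 7.34, between the backgrounds. Mc2r, the ACTH receptor of fetal Leydig and adrenal cells, was at 4.3 in the mean and below background, whereas its accessory protein Mrap was at 9.48. With Nr0b1, Mrap made up the 2 of 9 adrenal cortex genes that were above either background. The 7 genes of the list not above the olfactory background were Mc2r, Pdgfra (6.56), Thbs2 (6.09), Igf1 (5.97), Hsd11b1 (5.41), Hsd17b3 (4.86) and Sult1e1 (4.48), while Nr2f2 (8.54), a factor of Leydig progenitors, was above both. The share above the olfactory background, 68.2%, was near the 61.7% of all genes.

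Of 58 transcription factors of the gonad, 44 (75.9%) were above the olfactory and 34 (58.6%) above both backgrounds. Among all genes the shares were 61.7% and 37.7%. Gata4 read 11.26, 11.33 and 11.31 and Gata6 9.92, 10.03 and 9.93; they are the GATA factors known from Leydig cells. Gata1, known from Sertoli and blood cells, read 9.03, 9.12 and 9.1. Gata2 (7.29), Gata3 (7.05) and Gata5 (6.78) lay between the backgrounds, so all 6 GATA genes passed the weaker test and 3 the stricter. Lhx2, a LIM homeodomain factor, read 12.46, 12.43 and 12.35, at place 177, while its gonadal relative Lhx9 was at 6.34 and below background. Emx2 (5.45) and Tcf21 (6.21), factors of the early gonad, were below it too, and Wt1 (6.97), another of them, lay between the backgrounds.

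Sox9, the factor that sets Sertoli fate, read 9.96, 9.82 and 9.87 and was 3.28 (SE 0.044) over the olfactory background, with an adjusted p of 5.5e-22 in limma. Foxl2 (7.32), the factor of the ovary, lay between the backgrounds and Dmrt1 (6.66), a factor of the testis, on neither side of the weaker one. Cited2 (12.39), a coactivator in adrenal and gonad formation, Srebf2 (12.09), which drives cholesterol synthesis, Ctnnb1 (11.8), the beta-catenin gene, Sp3 (11.83) and Yy1 (11.6) were among the 20 highest genes of the 4 lists of gonadal factors, nuclear receptors and other receptors. So were Mef2d (11.31) and Atf1 (11.22), a relative of CREB. By family, 29 of 43 forkhead genes, 14 of 17 Klf, 12 of 19 Sox, 21 of 37 Hox and 11 of 13 Nkx genes were above the olfactory background, but 12, 11, 3, 1 and 0 above both. The single Hox gene was Hoxc10 (8.83). In the same order, the shares above the olfactory background were 67.4%, 82.4%, 63.2%, 56.8% and 84.6%, against 61.7% of all genes. Above both they were 27.9%, 64.7%, 15.8%, 2.7% and 0%, against 37.7%. In the T-box family Tbx15 was at a mean of 11.01 and Tbx3 at 10.86, above the 2 backgrounds like Tbx1 (8.64), and 6 of 12 genes were above the olfactory background.

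Nuclear receptors, which bind steroids, other lipids or no known ligand, divided into 30 of 45 above the olfactory background and 22 above both. These shares were 66.7% and 48.9%, against 61.7% and 37.7% of all genes. Behind Nr0b1 and Nr5a1 came Esr1, the oestrogen receptor alpha, at 10.87 in all 3 arrays. Nr1d1 (10.59) and Nr1d2 (10.39), the haem-binding clock repressors, and Thra (10.5), a thyroid hormone receptor, were also above both backgrounds. Nr4a1, an early gene of cAMP and stress, read 10.24, 10.44 and 10.4, lowest in replicate 1, while its relatives Nr4a2 (6.73) and Nr4a3 (6.19) lay near or below the olfactory background. The glucocorticoid receptor Nr3c1 was at 9.2, Nr2f2 at 8.54 and the LXR gene Nr1h3 at 8.79. Below background were the progesterone receptor Pgr (5.8), the mineralocorticoid receptor Nr3c2 (5.41), the vitamin D receptor Vdr (6.05), Esr2 (6.22) and the second SF-1 relative Nr5a2 (5.8).

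**Figure D3:**
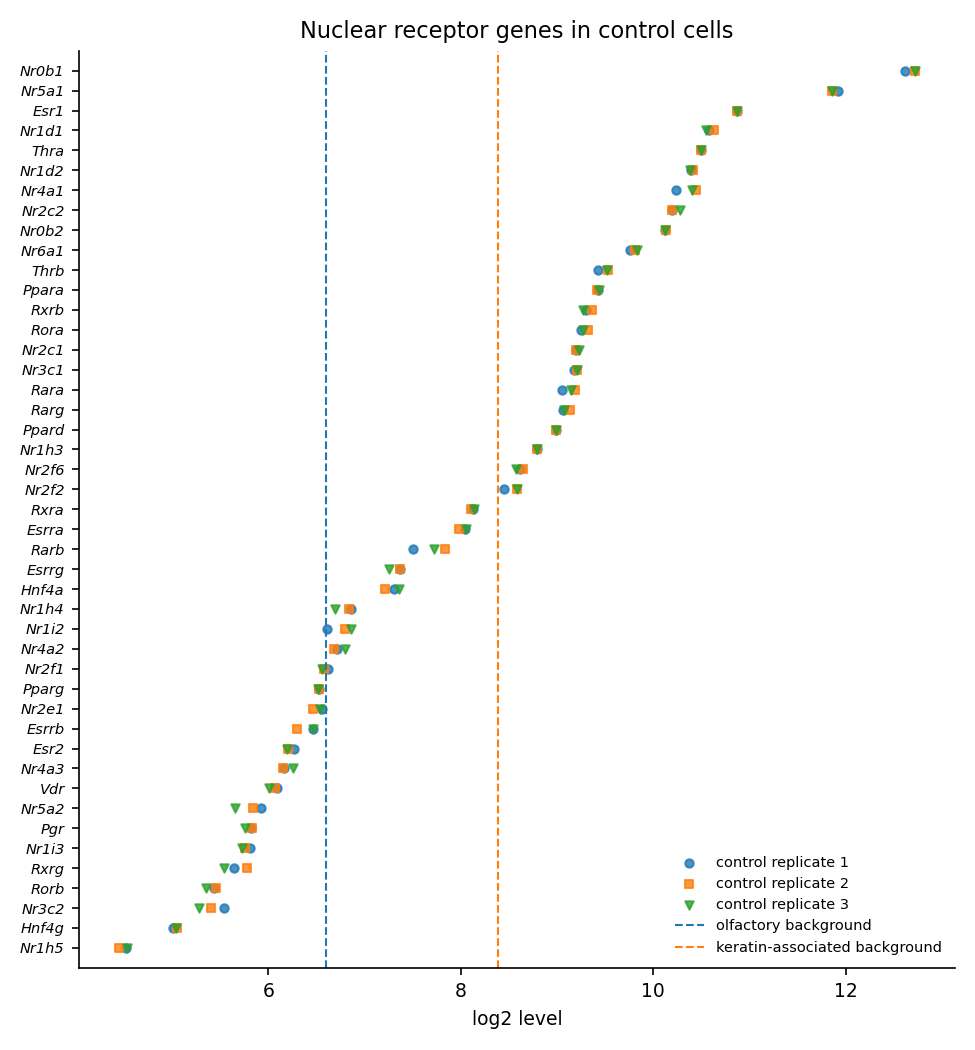
The x axis is the log2 level and each row 1 of 45 nuclear receptor genes, with a symbol for each control replicate. Of these, 22 lie clear of both dashed backgrounds; Nr0b1 and Nr5a1 stand apart at the top, and Nr4a2 and Nr4a3 lie near the olfactory background.

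Receptors for hormones, amines, lipids and peptides had the lowest share detected of the 3 receptor lists. In that list, 33 of 73 (45.2%) were above the olfactory background and 10 (13.7%) above both (all genes: 61.7% and 37.7%). These 10 were Oxtr, P2ry6 (9.87), Tbxa2r (9.77), Smo (9.49), Crhr1 (9.35), Npr1 (9.3), F2r (9.22), S1pr2 (9.14), Npy1r (8.9) and Kiss1r (8.55). Oxtr, the oxytocin receptor, read 11.08, 11.12 and 11.1. Crhr1 is the receptor for corticotropin-releasing hormone, Tbxa2r that for thromboxane, P2ry6 that for UDP and Npr1 that for atrial natriuretic peptide, a membrane guanylyl cyclase. The follicle-stimulating hormone receptor Fshr (6.39) and the gonadotropin-releasing hormone receptor Gnrhr (5.47) were below background, as were Rxfp1 (4.63), the relaxin receptor, and Calcrl (4.54). The luteinizing hormone receptor Lhcgr was not among the measured genes, so these counts say nothing of it.

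Receptor kinases, cytokine receptors and TGF-beta family receptors were above the olfactory background in 59 of 79 cases (74.7%) and above both in 38 (48.1%). All genes stood at 61.7% and 37.7%. Kit, the receptor for stem cell factor, read 11.35, 11.35 and 11.4, and its ligand Kitl 10.88, 10.92 and 10.92, so both were detected in the same samples. Il6st (11.51), the shared subunit of interleukin-6 type receptors, Bmpr2 (11.46) and Bmpr1a (10.89), which bind bone morphogenetic proteins, and the adiponectin receptors Adipor2 (11.31) and Adipor1 (11.14) were among the 20 highest genes of the 4 factor and receptor lists used here. The transferrin receptor Tfrc (10.94) and the tumour necrosis factor receptor Tnfrsf1a (11.07) were too. Egfr was at 10.55 and Igf1r at 9.4, while Erbb2 (6.42), Erbb4 (5.72), Met (4.92), Fas (4.91), Bmpr1b (4.89) and the leptin receptor Lepr (4.5) were below background.

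The machinery of cAMP was detected in part, with 24 of 45 genes (53.3%) above the olfactory and 14 (31.1%) above both backgrounds. Both shares lay under those of all genes, 61.7% and 37.7%. Prkar1a, a regulatory subunit of protein kinase A, was at a mean of 11.96 (SD 0.044), and Prkacb, a catalytic subunit, read 10.55, 10.54 and 10.54. The stimulatory G protein gene Gnas and the catalytic subunit gene Prkaca were not among these 45 genes. Of 10 adenylyl cyclase genes, which make cAMP, Adcy9 (9.1) and Adcy3 (8.98) were above both backgrounds, Adcy7 (7.12) and Adcy4 (7.09) between them, and 6 not above either. Of the phosphodiesterases that destroy cAMP, Pde8b read 10.31, 10.32 and 10.32 and Pde8a 10.13, 10.22 and 10.24. Pde4d (6.37), Pde4b (5.69) and Pde3b (4.29) were below the olfactory background, as was the kinase inhibitor Pkia (4.27).

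Energy metabolism was detected broadly, and the tissue forms of an enzyme often lay on different sides of the background. Of 34 glycolysis and glucose transport genes 25 (73.5%) were above the olfactory and 18 (52.9%) above both backgrounds (all genes: 61.7% and 37.7%). Ldha, the lactate dehydrogenase that makes lactate, read 13.44, 13.47 and 13.5, at place 11, whereas Ldhb was at 6.52 (on neither side of the olfactory background) and the germ cell form Ldhc at 5.37. The transporter Slc2a1 was at 11.51 and Hk1, the first enzyme of the path, at 12.04, while Slc2a3 (6.25), and the germ cell forms Gapdhs (6.29) and Pgk2 (4.64), were below background. In the citric acid cycle 31 of 33 genes were above the olfactory and 30 above both backgrounds, the 2 others being Pdha2 (4.57), a germ cell form, and Pdk2 (6.51).

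All 43 Nduf genes of respiratory complex I and all 17 ATP synthase genes were above the olfactory background, 37 and 17 above both. The shares of all genes, 61.7% and 37.7%, also apply to the next counts. Idh1 (13.21), Me1 (12.63) and Nnt (11.8), which regenerate the NADPH that steroid hydroxylases use, were above both, with all 3 arrays of Idh1 at 13.18 or more. Of 23 fatty acid oxidation genes 20 were above the olfactory background and 19 above both. Cpt1a, which admits fatty acids to the mitochondria, was at 12.11, and Hadh, a dehydrogenase of beta-oxidation, at 13.05, yet the coactivator Ppargc1a was at 4.55 and below background. Of 38 antioxidant and NADPH genes 34 were above the olfactory and 33 above both, led by Txn1 (13.73), Gstm1 (13.27) and Gstp1 (12.62). Gpx3 (5.9) and Gpx5 (4.6), glutathione peroxidases that are secreted, were below it.

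In cholesterol synthesis every measured gene, 22 of 22, was above both backgrounds, as against 37.7% of all genes. Msmo1, a sterol methyl oxidase, read 12.58, 12.58 and 12.64, and Hmgcs1, which makes the precursor of mevalonate, 12.53, 12.47 and 12.47. Fdft1 (12.42) and Sqle (12.04) carry out the first steps towards sterols, and Insig1 (12.03) holds the path in check. The lowest level of the list was that of Pmvk, 8.93, 8.86 and 8.83. Of 24 fatty acid synthesis genes 21 were above the olfactory and 18 above both backgrounds (all genes: 61.7% and 37.7%). The desaturases Scd1 (13.34), Scd2 (13.28), Fads2 (13.13) and Fads1 (13.1) were at the top. Scd1 and Scd2 are alike in sequence and may share signal. Scd3 (5.94), Elovl2 (5.16) and Elovl3 (5.34) were below background.

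The energy sensor AMPK, which the AICAR of another group in the study activates, was represented by 20 measured genes. All were above the olfactory and 18 above both backgrounds (all genes: 61.7% and 37.7%). Prkaa1, the alpha 1 catalytic subunit, read 11.36, 11.4 and 11.39, and Prkaa2, the alpha 2 subunit, 9.54, 9.54 and 9.65. Slc29a1, a nucleoside carrier, was at 11.38, Adk, the adenosine kinase, at 9.41 and Atic, the enzyme that consumes the AICAR nucleotide, at 11.37. The uptake and conversion of that nucleoside thus had detected genes in untreated cells.

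The cells carried the transcripts of dividing cells: 34 of 35 proliferation genes were above the olfactory background and 32 above both (all genes: 61.7% and 37.7%). Mki67, which marks cycling cells, read 11.95, 11.94 and 11.98, Pcna 12.53, 12.53 and 12.58, and Cdk4 12.59, 12.58 and 12.67. Cdk6 (6.23) was the exception below background. Tert, the catalytic subunit of telomerase, was at 9.95. Top2a was the one gene of the lists whose probes disagreed, at 11.06 and 4.92. Of 28 genes of growth control 25 were above the olfactory background and 21 above both. Myc read 12.13, 12.12 and 12.13 and the tumour suppressor gene Cdkn2a 10.99, 11.04 and 10.99, while Mycn (6.55) and Bcl2 (6.31) were not above background.

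Of 77 secreted factors 40 (51.9%) were above the olfactory and 19 (24.7%) above both backgrounds, under the 61.7% and 37.7% of all genes. Agt, angiotensinogen, read 12.97, 12.98 and 12.98, at place 61. Igfbp6 (11.98) and Igfbp5 (11.7) bind insulin-like growth factors, Vegfa (11.5) acts on vessels, Timp3 (11.5) blocks matrix proteases and Csf1 (10.92) acts on macrophages. Il6 read 3.66, 3.74 and 3.69 and stood at place 19855 of 19938. Il1a (4.62), Igf1 (5.97) and Amh (6.54) were not above background either.

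The 20 highest signals of the control cells joined structural RNAs, housekeeping genes and a few less usual names. Baiap2l1, an adaptor of membrane and actin, stood first at 14.03, 14.05 and 14.05. It was followed by Rn7sk (14.02) and Rpph1 (13.82), RNAs of transcription control and tRNA processing, Eef1a1 (13.78), Actb (13.77), the histone gene H4c4 (13.74), Txn1 and the metallothionein gene Mt2 (13.72). Kcnma1, the large-conductance calcium-activated potassium channel, stood at place 9 with 13.54, 13.52 and 13.54. Then came Mt1 (13.48), Ldha, the small RNA Rny3 (13.45), Lgals1 (13.43), Cox6c (13.42), Rps6 (13.41), Cd81 (13.38), Atp5g3 (13.35), Scd1, Mif (13.33) and Atp5g2 (13.31). Mt1 and Mt2 are near-identical copies whose probes may share signal.

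Markers of other lineages were detected less often than genes in general. Of 228 genes in 18 lists, 79 were above the olfactory background (34.6%, against 61.7% of all genes) and 12 above both (5.26%, against 37.7%). By list, only peritubular muscle (66.7% of 9 genes) and red blood cell genes (75.0% of 4) exceeded the 61.7% share. In these bulk samples, a few cells of another type and little RNA per cell cannot be told apart. Without genes that also stand in a Leydig or gonadal list, 70 of 211 and 9 passed. These 9 were Cdh5, Plvap (9.83), Sox18 (9.45), Tnni3, Ckm, Map2, Mrap, Epor (8.54), the erythropoietin receptor, and Prl (8.68). The other 3 of the 12 were Nr0b1, Sox9 and Gata1.

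Of 26 germ cell genes 6 were above the olfactory background and 0 above both. The 6 were Ddx4 (7.38), Dmc1 (7.18), Prm2 (6.93), Sohlh1 (6.87), Gfra1 (6.84) and Nanos3 (6.84), whereas Dazl (4.12), Sycp1 (4.03), Sycp3 (4.34) and Stra8 (4.59) lay far below. Of 17 macrophage genes Cd68 (7.74) and Cx3cr1 (7.22) passed the weaker test, and 0 the stricter, while Adgre1 (4.75), Lyz2 (5.19), Ptprc (5.37) and Csf1r (5.79) were below background. Of 14 lymphocyte genes only Cd3e (6.91) passed the weaker test. Fibroblast genes passed in 4 of 13 cases by the weaker test, Col1a1 (7.82), Col1a2 (7.45), Col3a1 (7.24) and Thy1 (6.79), and in 0 by the stricter, with Lum at 4.24 and Dcn at 5.48. Peritubular smooth muscle genes passed in 6 of 9 by the weaker (66.7%, against 61.7% of all genes) and 0 by the stricter, Smtn (8.53) being the highest.

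Sertoli cell genes, the closest neighbours in the testis, passed in 7 of 16 cases by the weaker and 2 by the stricter test, Sox9 and Gata1. Dhh, the hedgehog ligand of Sertoli cells, was at 8.41, Cldn11 at 7.03, Ptgds at 7.0, Wt1 at 6.97 and Sox8 at 6.93, all between the backgrounds. Amh (6.54), Fshr (6.39) and Cst9 (5.13) were not above background. Of 9 granulosa genes Inhbb (7.8), Foxl2 (7.32) and Fst (6.89) passed the weaker test and 0 the stricter. Sox9 was thus detected without most of the Sertoli list, and whether other cells contribute to its signal was not tested.

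Of 15 endothelial genes 8 passed the weaker test and 3 the stricter. Cdh5, the cadherin of vessel walls, read 11.96, 11.96 and 11.98, at place 370 and 5.37 (SE 0.042) over the olfactory background. Plvap and Sox18 were the others above both, and Esam (8.42), Vwf (7.06), Flt1 (6.99), Tie1 (6.87) and Cldn5 (6.87) lay between the backgrounds. The remaining 7, Pecam1 (6.35), Robo4 (6.34), Erg (6.26), Sox17 (5.99), Kdr (5.83), Tek (5.18) and Emcn (4.58), were below the olfactory background. Of 23 cadherin genes 6 were above the olfactory background and Cdh5 and Cdh15 (9.82) above both. Cdh1 (6.29) and Cdh2 (5.63), the cadherins of epithelia and of neurons, were below the olfactory background. Vim (13.27), the intermediate filament of mesenchymal cells, and the gap junction gene Gja1 (10.99) were above both backgrounds, while Epcam (8.12) and Krt8 (7.57) lay between the backgrounds and Krt18 (6.56) on neither side of the weaker one.

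Muscle genes passed in 8 of 16 cases by the weaker and 2 by the stricter test. Tnni3, the cardiac form of troponin I, read 12.34, 12.41 and 12.36, at place 192, and Ckm, muscle creatine kinase, 9.97, 10.06 and 10.07. Of their partners in the sarcomere, Myh6 (6.29), Myh7 (6.17) and Ttn (6.08) were below the olfactory background. Acta1 (7.65), Actc1 (7.59), Tnnt3 (7.08) and Tnnt2 (7.01) lay between the backgrounds, as did Mb (7.11) and Myod1 (7.08) of the list. Map2, a microtubule protein of neurons, read 11.26, 11.2 and 11.21. Of 18 neuron genes 4 passed the weaker test, Map2 and, between the backgrounds, Syp (8.31), Slc17a7 (8.05) and Nefh (7.29). Snap25 (5.99), Tubb3 (5.97) and Syt1 (5.85) were among those below the olfactory background. By the stricter test, Tnni3 and Ckm were the only muscle genes and Map2 the only neuron gene above background.

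For farther tissues the counts were as follows. By the weaker and the stricter test, liver genes passed in 3 and 0 of 13 cases, glia in 4 and 0 of 9, epithelia in 7 and 0 of 15, fat in 2 and 0 of 9, pancreas in 4 and 0 of 8, red blood cells in 3 and 1 of only 4 measured genes and pituitary with hypothalamus in 5 and 1 of 11. The share of red blood cell genes by the weaker test, 75.0%, was over the 61.7% of all genes. Albumin (Alb) was at 5.02. Prl, prolactin, read 8.56, 8.74 and 8.72, and Gnrh1, between the backgrounds, was at 8.37.

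**Figure D4:**
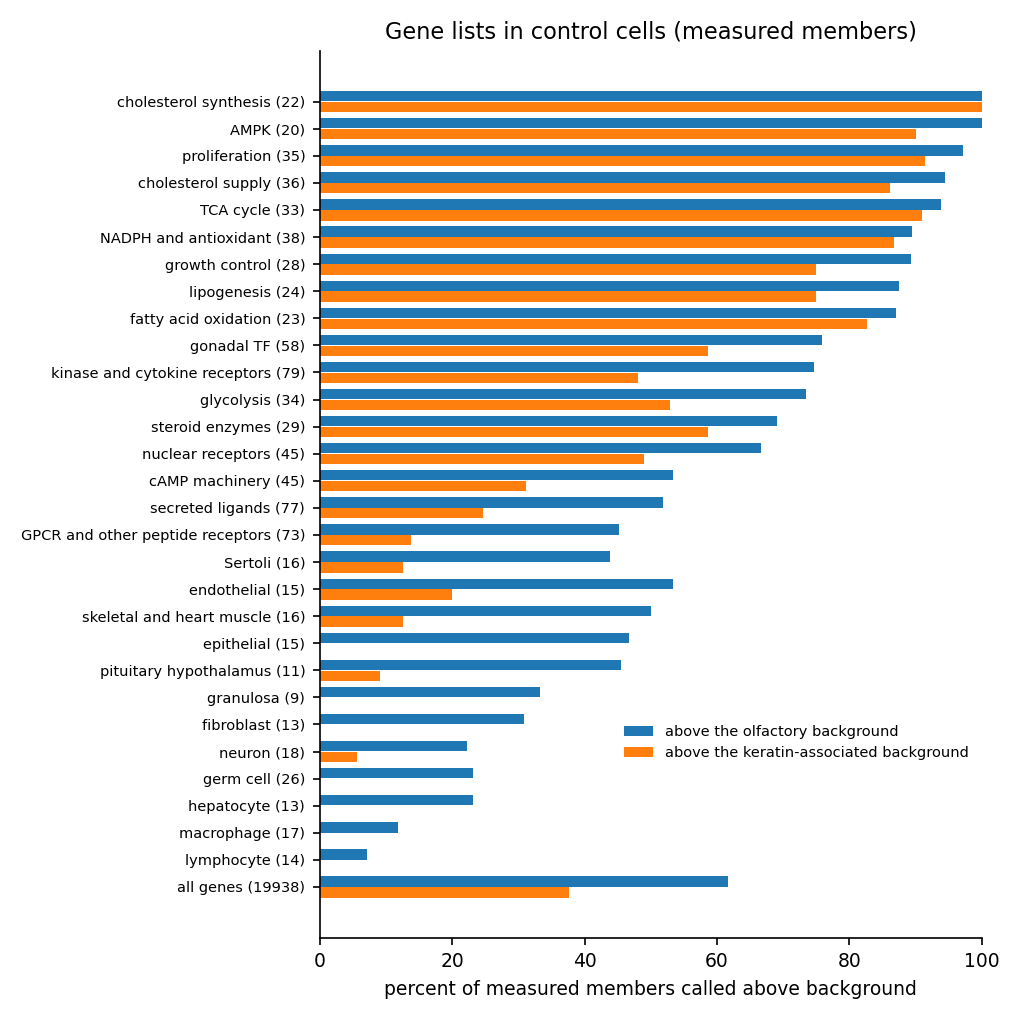
The x axis is the percent of a list's measured genes called above a background, and the y axis the lists with their number of measured genes; blue bars are the olfactory and orange bars the keratin-associated background. Cholesterol synthesis reaches the end of the axis for both, macrophage and lymphocyte genes reach 11.8 and 7.14 for the olfactory background and 0 for the other, and all genes stand at 61.7 and 37.7.

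Genes of the Y chromosome were at the bottom of the scale in a line that comes from a testis. Eif2s3y read 3.69, 3.7 and 3.61, at place 19866, and Zfy2 (3.93), Zfy1 (4.13), Uty (4.16), Usp9y (4.24) and Kdm5d (4.81) were likewise below the olfactory background. Their X partners Eif2s3x (11.16), Kdm5c (10.09) and Ddx3x (11.6) were above both backgrounds and Kdm6a (8.22) between. Xist, the RNA that silences a second X chromosome, read 5.22, 5.08 and 5.03, below background. Sry, the sex-determining gene, was at 7.94, 7.88 and 7.73, between the backgrounds, unlike the other Y genes.

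Promoter composition varied with the level of the gene. Of the 19938 genes 12977 had exactly 1 RefSeq promoter window of 300 bases, and they were grouped by the 10 equal level classes of all 19938 genes, with class 1 the lowest, so that a class held between 1237 and 1412 windows. The median CpG ratio (observed over expected) was 0.15 in class 1, 0.54 in class 5, 0.8 in class 7 and 0.84 in class 10. The GC content went from 40.0% to 62.7%, the share with a GC box from 10.1% to 72.5% and that with TATAAA from 32.6% to 7.17%. CCAAT showed no such course, with 41.6% in the lowest and 40.2% in the highest class.

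The motifs searched, on both strands, were AAGGTCA (SF-1), TGACGTCA (CREB), GGGCGG (the GC box), TATAAA (the TATA box), CCAAT (read by NF-Y) and, for GATA factors, AGATAA and the variant TGATAA; the last pair share the letters GATAA and were counted apart. In all 12977 windows their shares were 3.77%, 2.46%, 49.3%, 12.9%, 38.7%, 9.76% and 7.2%. AAGGTCA was in 5.81% of the lowest and 3.05% of the highest class, TGACGTCA in 0.779% and 3.89%. Olfactory receptor genes, which set the background and fill the low classes, had a median CpG ratio of 0.11 and TATAAA in 41.2% of 862 windows. The measures describe the array's genes and share base composition with one another, so none stands for a separate effect.

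The Leydig lists had lower median CpG ratios than detected genes in general, given here as a description. Detected genes of the Leydig stage list with 1 window had a median CpG ratio of 0.32 over 12 windows and those of the steroid list 0.52 over 14, against 0.77 over the 7886 windows of all genes above the olfactory background. In cholesterol synthesis the ratio was 0.85, and CCAAT was in 15 of 15 windows and GGGCGG in 14, as in the Hmgcs1 and Msmo1 sequences above. The proliferation genes held CCAAT in 17 of 24. AAGGTCA was in 1 of 14 windows of the steroid list and 2 of 12 of the Leydig stage list, one of them Amhr2.

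**Figure D5:**
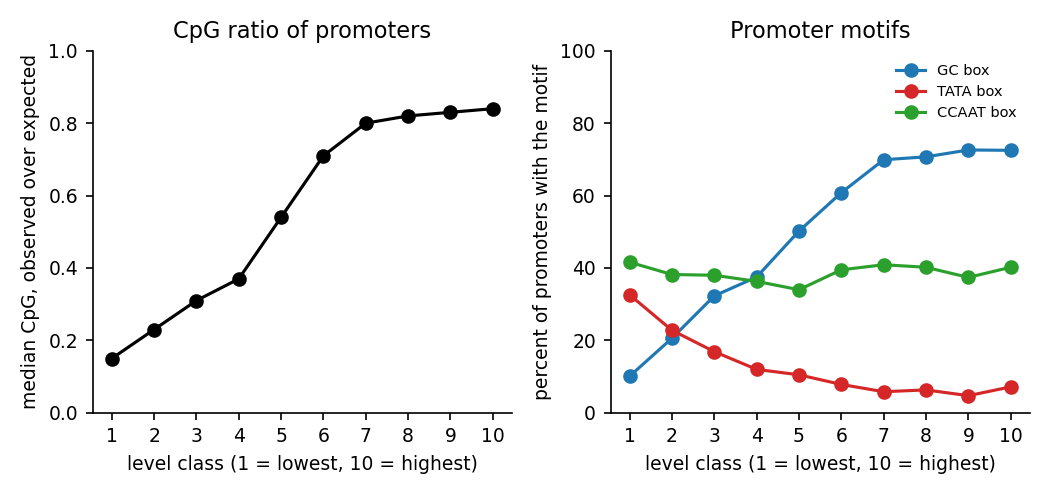
The x axes are the 10 classes of mean log2 level in control cells, 1 being the lowest, over 12977 genes with 1 promoter window. The left y axis is the median CpG ratio, observed over expected, which goes from 0.15 to 0.84; the right y axis is the percent of windows with GGGCGG (blue), TATAAA (red) and CCAAT (green), of which the first rises to 72.5, the next falls to 7.17 and the last ends at 40.2.

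The 3 control arrays were close to each other. Their medians over genes were 7.47, 7.48 and 7.44, and across genes, which are not independent replicates, the pairs correlated with Pearson's r of 0.9987 to 0.9991. The median SD of a gene over the 3 arrays was 0.051 on the log2 scale, 0.045 in genes above the olfactory background and 0.063 in the others, and 202 genes had an SD over 0.2. Replicate 3 stood somewhat apart, with 231 genes over 0.3 log2 from the mean of the other two, against 112 and 93 in replicates 1 and 2. Without it the median SD was 0.033. In 376 genes, Thra, Nr1h3 and Ppargc1a among them, the deposited value was the same in all 3 control arrays, and in 1 gene in all 9 arrays, so an SD near 0 does not measure the spread of those genes.

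The widest SDs of named genes were in small RNAs, zinc finger genes and silent genes. Vaultrc5, a vault RNA, read 8.2, 7.28 and 7.44 and so was high in replicate 1 alone. Zfp931 (6.8, 6.88 and 7.59), Zfp455 (5.82, 5.9 and 6.49), Zfp345 (5.76, 5.77 and 6.32) and Zfp947 (6.57, 6.8 and 7.19) were highest in replicate 3. Vmn2r54, Dppa3, Fbxw22, Sprr2b and Snord58b, with SDs of 0.42, 0.34, 0.34, 0.32 and 0.32, were the others of the 10 widest and none was above the olfactory background. Of 255 numbered Zfp genes above that background 153 were higher in replicate 3 than in the mean of the other arrays, with a median deviation of 0.021, against 6160 of 12292 genes in all. The Leydig markers had SDs of at most 0.06.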

How the data were processed

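The arrays were Affymetrix whole-transcript arrays of biotin-labelled cDNA from total RNA (TRIZOL). The deposited log2 values, 1 per probe and array, were made by the authors with RMA and Partek, per the submitters' processing notes, without versions or settings; RMA in its usual form corrects background, equalises the arrays' distributions and summarises probes by median polish. The genome build is not given in the sources used here. Of 35557 probes, 21789 carried 1 gene symbol, 1621 several and 12147 none listed. For 999 genes with several probes the brightest, by its mean over the 9 arrays, was kept, and 173 of these had probes that disagreed on being above background. Of 19938 genes, 19856 matched the RefSeq table by Entrez identifier. Missing values and duplicate arrays numbered 0.

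Each gene's value minus its array's background was fitted with an intercept in limma 3.58.1 (R 4.3.3), moderated, two-sided and Benjamini-Hochberg adjusted over all genes. The test treats the background of an array as known. It was tested on simulated data. Members and the 39 lists and 34 families were chosen with earlier results of these data known. The genes named are the 6 markers, the 20 highest of all genes and of the factor and receptor lists, and the 10 widest SDs. Each list or family adds its highest (up to 6) and lowest or undetected (up to 4) members, and those needed to complete a small count. Markers of other lineages above both backgrounds are all named, but those between the backgrounds only in part. Predicted transcripts are counted, not named. Some further list members were named after their values were seen: those that share a family, path or complex with a gene so chosen. Promoter windows are RefSeq's, GRCm38.p6, matched by symbol: 15614 genes matched and 12977 had exactly 1 window. The windows of Star, Cyp11a1, Nr5a1 and Scarb1 are not printed. Alternatives were other backgrounds, probe rules, normalizations and priors, a filter and each array left out. Figures were drawn in matplotlib 3.10.9 and tables made with numpy 2.4.6 and pandas 2.3.3 under Python 3.11.15.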

Additional observations from a re-analysis of the deposited data

Results flagged for a closer look

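Signals also lay in probes that the gene ranking did not use. Of 12147 probes with no gene symbol listed, 5967 (49.1%) were above the array's olfactory background in all 3 control arrays, and of 1621 probes with several symbols 880 (54.3%) were. Among the probes with 1 symbol the share was 62.2%.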

How the results depend on the processing

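The count of genes above background was 12292 and lay between 9942 (99th percentile of the olfactory genes) and 17524 (a fixed log2 value of 5) under 17 of the 18 alternatives; leaving out 1 array gave 12184 to 12219. Under the keratin-associated background, chosen after seeing the data, it was 7511. Genes of the 4 silent families passed in 19 cases, in 29 with the 90th percentile and in 10 with the 99th. With fixed values of 5 and 6 they numbered 93 and 34, and with the keratin-associated background 2. These 2 were keratin-associated genes, whose own upper levels set that background, so the count for that family was fixed in advance and checks nothing. Of the beta-defensins, which did not set it, 7 passed the olfactory and 0 the keratin-associated background. Vomeronasal and bitter taste receptors had 0 with either. The median SD of 0.051 was 0.033 to 0.045 with 1 array left out, lowest without replicate 3; 2 arrays give a smaller SD by construction. Of 96 values of the 6 markers under the alternatives, 96 stayed above background. The hormone and peptide receptor count of 33 was 17 with the 99th percentile, 65 with a fixed value of 5 and 10 with the keratin-associated background; that of kinase and cytokine receptors went from 59 to 38 with the last. The choice of background thus sets how many weakly detected genes count, and with no detection call in the values the true limit of detection is unknown. No paired analysis was possible because only the control arrays entered and no groups were compared.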
